A study of Mus musculus with 12 samples.

Results

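Hippo pathway effectors and YAP targets were followed, as 8 genes, through RNA sequencing counts of the 4T1 mouse mammary carcinoma line, grown in dishes or as tumors. They were chosen by name from the pathway, with earlier results of these data known. Yap1 and Wwtr1 encode the coactivators YAP and TAZ, and Tead1 encodes a DNA-binding partner of both. Lats2 is the gene of an inhibitory kinase. Amotl2, Ankrd1, Axl and Crim1 are described as genes that YAP and TAZ switch on. These were 8 of the 39017 genes in each deposited count table, and all 8 passed the filter on low counts in cultures and in tumors.

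The series title concerns loss of POGZ, a zinc finger protein of heterochromatin, TGF-beta signaling and metastasis of triple-negative breast cancer. It holds 3 tumors and 3 cultures labelled as POGZ knockout (KO), and 3 tumors and 3 cultures labelled VC, whose genotype label is POGZ WT. All 12 samples derive from 4T1 cells, which come from BALB/c mice. KO-labelled tumors are titled POGZ_KO_8454, POGZ_KO_8455 and POGZ_KO_8459 and VC tumors POGZ_VC_8447, POGZ_VC_8448 and POGZ_VC_8451. For tumors, 50k cells were placed in the mammary fat pad of BalbC mice of 8 weeks, and the tumors were taken after 28 days. Such hosts keep their immune system, and a bulk tumor sample holds host stroma and blood cells beside the carcinoma cells. KO-labelled and VC cultures were kept in DMEM containing 10% FBS, and their RNA was purified once they reached 75% confluency. The labels do not say whether the 3 libraries of a culture group were separate clones or separate dishes, so p-values measure only the spread between these libraries.

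Pogz itself was read first, as the check of the labels. KO-labelled tumors POGZ_KO_8454, POGZ_KO_8455 and POGZ_KO_8459 had 131, 106 and 84.5 CPM, which are counts scaled by the total of the library, and VC tumors POGZ_VC_8447, POGZ_VC_8448 and POGZ_VC_8451 had 86.0, 103 and 109 CPM. KO-labelled cultures 1, 2 and 3 had 68.4, 67.8 and 68.6 CPM, and VC cultures had 50.9, 52.0 and 48.1 CPM. Pogz RNA was thus higher in the cultures labelled as knockout (log2 fold change 0.45 ± 0.04 SE, edgeR Benjamini-Hochberg adjusted p = 3.66e-06), and the groups overlapped in tumors (0.11 ± 0.20, edgeR adjusted p = 0.944). The level in cultures goes against the label, and a gene count does not show whether a coding frame is intact. Pogz lies on chromosome 3, whose genes had a median of 0.33 in cultures, with 89.4% of them higher in KO-labelled cells. Groups are therefore called by their labels, and every direction below is a difference between libraries that carry them.

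Total counts ran from 12128993 to 13043831 in KO-labelled tumors and from 4712001 to 8338828 in VC tumors, and from 14724518 to 21863223 in cultures. All 8 carcinoma markers, the keratin genes Krt7, Krt8, Krt18 and Krt19 and the junction genes Epcam, Cdh1, Cldn4 and Cldn7, were detected in every group. Their summed level was 1840 to 2139 CPM in KO-labelled tumors, 1966 to 2569 CPM in VC tumors, 4050 to 4140 CPM in KO-labelled cultures and 3530 to 3881 CPM in VC cultures. The 8 fibroblast markers summed to 3541 to 6681 CPM in KO-labelled tumors and to 2388 to 3851 CPM in VC tumors. They summed to at most 19.6 CPM in KO-labelled cultures and at most 30.3 CPM in VC cultures, where Dcn, Lum and Thy1 had no count in either group. In bulk tumors, fewer cells of a type and less RNA per cell cannot be told apart.

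The Hippo pathway is a kinase relay that restrains growth. The kinases MST1 and MST2 (genes Stk4 and Stk3) activate LATS1 and LATS2, which phosphorylate YAP and TAZ and so keep them out of the nucleus. Unphosphorylated YAP and TAZ enter the nucleus and bind TEAD proteins, which sit on DNA at the motif GGAATG and its reverse complement. Their target genes include Ccn1 and Ccn2, the matrix-associated factors long used as readouts, and also genes that feed back on the pathway, such as Lats2 and Amotl2. In breast carcinoma YAP and TAZ are known for promoting growth and invasion. Most of this control acts on the proteins, which RNA counts do not measure.

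The TEAD motif was looked for in the promoter windows that RefSeq gives for GRCm38.p6, from 250 bases before to 50 bases after each annotated start. A window was given for 7 of the 8 genes, all but Tead1. Each of these 7 had GGAATG on one strand or the other, in 8 of their 9 windows, while 14.7% of all 32851 windows and 16.6% of all 27025 genes had it. Of the other Hippo genes, 5 of 17 kinase, scaffold and regulator genes with a window had the motif, as did 4 of 6 other TEAD and VGLL genes and 2 of 10 other described YAP targets. The AP-1 motif TGANTCA, which often lies near TEAD sites, was in 0 of the 9 windows and in 7.81% of all windows. These matches describe letters in a short window. They are no measure of binding.

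The windows of 3 target genes, of which Ankrd1 and Amotl2 rose and Axl fell in KO-labelled cultures, are given whole, on the strand of the gene from 5′ to 3′, with the TEAD motif or its reverse complement in capitals. Ankrd1 lies on the minus strand, with its window at chr19:36119795-36120094, and had the motif at 210 and at 123 bases before the start. Amotl2 lies on the plus strand, with its window at chr9:102717554-102717853, and had the reverse complement at 65 bases before the start. Axl lies on the minus strand, with its window at chr7:25788684-25788983, and had the motif at 233 bases before the start.
Ankrd1: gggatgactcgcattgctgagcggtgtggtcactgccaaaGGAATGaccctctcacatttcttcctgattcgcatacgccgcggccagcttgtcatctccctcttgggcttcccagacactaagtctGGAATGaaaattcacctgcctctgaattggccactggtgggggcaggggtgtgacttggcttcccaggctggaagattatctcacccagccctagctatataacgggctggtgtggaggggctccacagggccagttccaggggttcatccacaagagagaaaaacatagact
Amotl2: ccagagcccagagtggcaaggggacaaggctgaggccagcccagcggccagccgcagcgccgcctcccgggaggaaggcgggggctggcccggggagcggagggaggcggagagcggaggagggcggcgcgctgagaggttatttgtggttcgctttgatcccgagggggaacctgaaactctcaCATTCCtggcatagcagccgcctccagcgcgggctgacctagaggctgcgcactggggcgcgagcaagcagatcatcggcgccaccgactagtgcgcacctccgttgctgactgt
Axl: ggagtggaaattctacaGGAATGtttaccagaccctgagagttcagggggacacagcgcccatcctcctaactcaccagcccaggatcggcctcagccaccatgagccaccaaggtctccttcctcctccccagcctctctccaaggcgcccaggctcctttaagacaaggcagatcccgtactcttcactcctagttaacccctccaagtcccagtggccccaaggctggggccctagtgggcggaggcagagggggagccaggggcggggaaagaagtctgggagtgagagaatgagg

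For the other 4 genes the 40 bases around the motif are shown, again on the strand of the gene. They show that the 6 letters stand in unlike surroundings, with A-rich sequence before the motif in Wwtr1 and a run of G before it in Crim1. The stretch is at chr9:8004715-8004754 on the minus strand for Yap1, with the motif at 141 bases before the start. It is at chr3:57576024-57576063 on the minus strand for Wwtr1, at 136 bases before the first of 2 annotated starts. It is at chr14:57746097-57746136 on the minus strand for Lats2, with the motif 4 bases past the start, and the window of a second Lats2 start had none. It is at chr17:78200152-78200191 on the plus strand for Crim1, at 79 bases before the start.
Yap1: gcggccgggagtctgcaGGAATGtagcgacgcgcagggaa
Wwtr1: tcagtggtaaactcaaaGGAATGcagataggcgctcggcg
Lats2: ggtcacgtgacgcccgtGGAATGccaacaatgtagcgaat
Crim1: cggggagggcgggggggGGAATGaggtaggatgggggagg

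**Figure D1:**
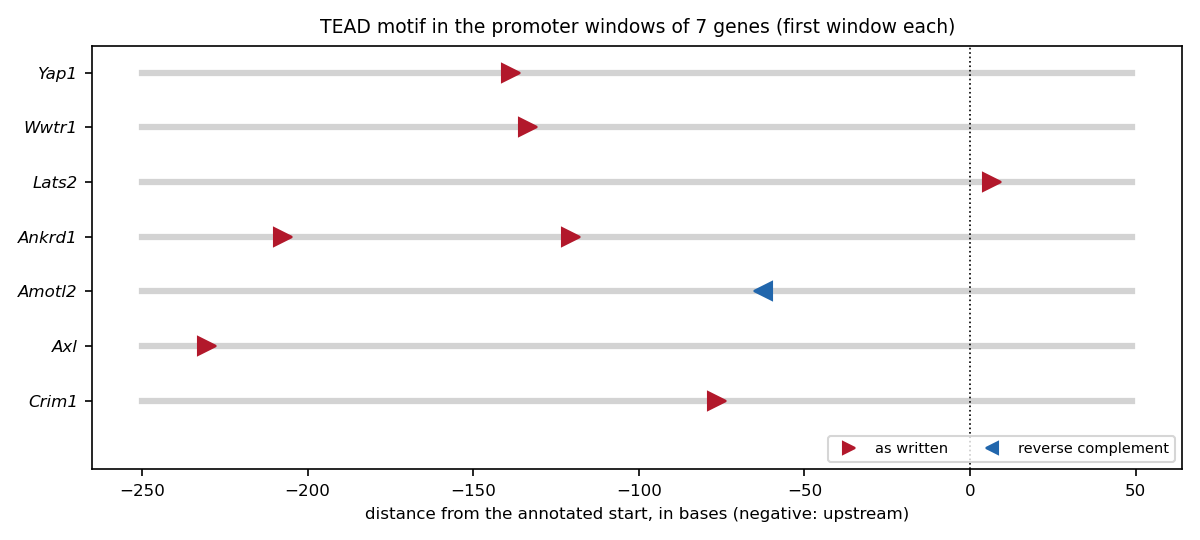
Place of the TEAD motif in the first promoter window of the 7 genes that had one. The horizontal axis is the distance in bases from the annotated start, arrowheads mark matches as written or as the reverse complement, and the matches range from 233 bases before the start in Axl to 4 bases past it in Lats2.

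In cultures, 5 of the 8 genes rose in KO-labelled cells, 1 fell and 2 did not pass the test. Wwtr1, Lats2, Ankrd1, Amotl2 and Crim1 rose by 0.22 to 0.49 on the log2 scale, Axl fell by 0.52, and Yap1 and Tead1 stood at -0.06 and 0.10. The test was edgeR's quasi-likelihood test with Benjamini-Hochberg adjustment over 15705 genes, and a gene was called at an adjusted p under 0.05. By that rule 47.9% of all genes tested were called, 23% higher and 24.9% lower, so a share of 6 in 8 stands beside a culture contrast in which calls were common. The groups did not overlap for the same 6 genes, and for 55.7% of all genes, 25.8% higher and 29.8% lower. The median change of the 8 was 0.23, beside -0.01 over all genes tested. With the spread of all 12 libraries in 1 fit, which gives cultures the wider spread of tumors, Lats2 and Axl were called and the other 6 were not.

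Of the coactivator genes, Wwtr1 was called and Yap1 was not. Wwtr1, at chr3:57455649-57575910, had 201, 205 and 202 CPM in KO-labelled cultures 1, 2 and 3, against 155, 142 and 147 CPM in VC cultures. The groups did not overlap, and KO-labelled cultures differed among themselves by 1.02 times at most (log2 fold change 0.46 ± 0.04, 1.38-fold, edgeR adjusted p = 2.45e-06). In cultures, genes of chromosome 3 were shifted as a group, with a median of 0.33 over 509 genes and 89.4% of them higher in KO-labelled cells. With each chromosome's median taken out, Wwtr1 stood at 0.13 ± 0.04 (edgeR adjusted p = 0.0233). In the fit over all 12 libraries Wwtr1 narrowly missed it (0.45 ± 0.13, edgeR adjusted p = 0.0512).

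Yap1, at chr9:7931999-8004596, had 203, 194 and 198 CPM in KO-labelled cultures and 200, 206 and 218 CPM in VC cultures. The ranges overlapped and Yap1 was not called (-0.06 ± 0.04, edgeR adjusted p = 0.288). Of its exon bases, 1.25% lie under an exon of Gm20416 on the other strand, and strand use in counting is not given, so a small part of the count may not be its own. Tead1, at chr7:112679318-112906807, had 286, 289 and 277 CPM in KO-labelled cultures and 265, 281 and 256 CPM in VC cultures. The highest VC culture lay above the lowest KO-labelled culture, and Tead1 was not called (0.10 ± 0.04, edgeR adjusted p = 0.0792). It passed with the chromosome medians taken out (0.15 ± 0.04, edgeR adjusted p = 0.0145), as chromosome 7 had a median of -0.05, and it passed without VC culture 2 (0.13, edgeR adjusted p = 0.0374).

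The 2 genes that feed back on YAP were higher in KO-labelled cultures. Lats2, the kinase gene at chr14:57689662-57758388, had 78.5, 81.0 and 79.4 CPM in KO-labelled cultures and 53.5, 59.6 and 57.4 CPM in VC cultures. The groups stood far apart, and this was the largest rise among the 8 genes (0.49 ± 0.05, 1.41-fold, edgeR adjusted p = 2.45e-06). Amotl2, a junctional scaffold of the angiomotin family that binds YAP, at chr9:102716672-102733418, had 105, 109 and 116 CPM in KO-labelled cultures and 96.5, 93.7 and 95.1 CPM in VC cultures. The groups did not overlap, but the rise was small (0.22 ± 0.04, 1.17-fold, edgeR adjusted p = 0.00113), and it was not called in the fit over all 12 libraries (edgeR adjusted p = 0.828).

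The 3 remaining targets did not move together. Ankrd1, a nuclear ankyrin repeat protein first known from heart muscle, at chr19:36111961-36120099, had 198, 213 and 203 CPM in KO-labelled cultures and 172, 158 and 146 CPM in VC cultures. The groups did not overlap (0.38 ± 0.05, 1.30-fold, edgeR adjusted p = 0.000111). Crim1, a transmembrane protein with cysteine-rich repeats that binds BMP ligands, at chr17:78200248-78376592, had 167, 168 and 163 CPM in KO-labelled cultures and 146, 140 and 137 CPM in VC cultures. Every KO-labelled culture was above every VC culture (0.24 ± 0.04, 1.18-fold, edgeR adjusted p = 0.000243). Neither was called in the fit over all 12 libraries (edgeR adjusted p = 0.649 for Ankrd1 and 0.462 for Crim1), and 2.05% of the exon bases of Crim1 lie under an exon of Fez2 on the other strand.

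Axl went the other way. This receptor tyrosine kinase, which binds the ligand GAS6 and is known from invasive breast carcinoma cells, lies at chr7:25757273-25788705. It had 432, 447 and 423 CPM in KO-labelled cultures and 632, 613 and 628 CPM in VC cultures. The gap between the groups was wide beside the spread within each, and Axl ranked within the top 3.01% of all genes tested by its p (-0.52 ± 0.04, 0.698-fold, edgeR adjusted p = 5.01e-07). It was also called in the fit over all 12 libraries (edgeR adjusted p = 0.00861). Chromosome 7 as a whole had a median of -0.05.

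**Figure D2:**
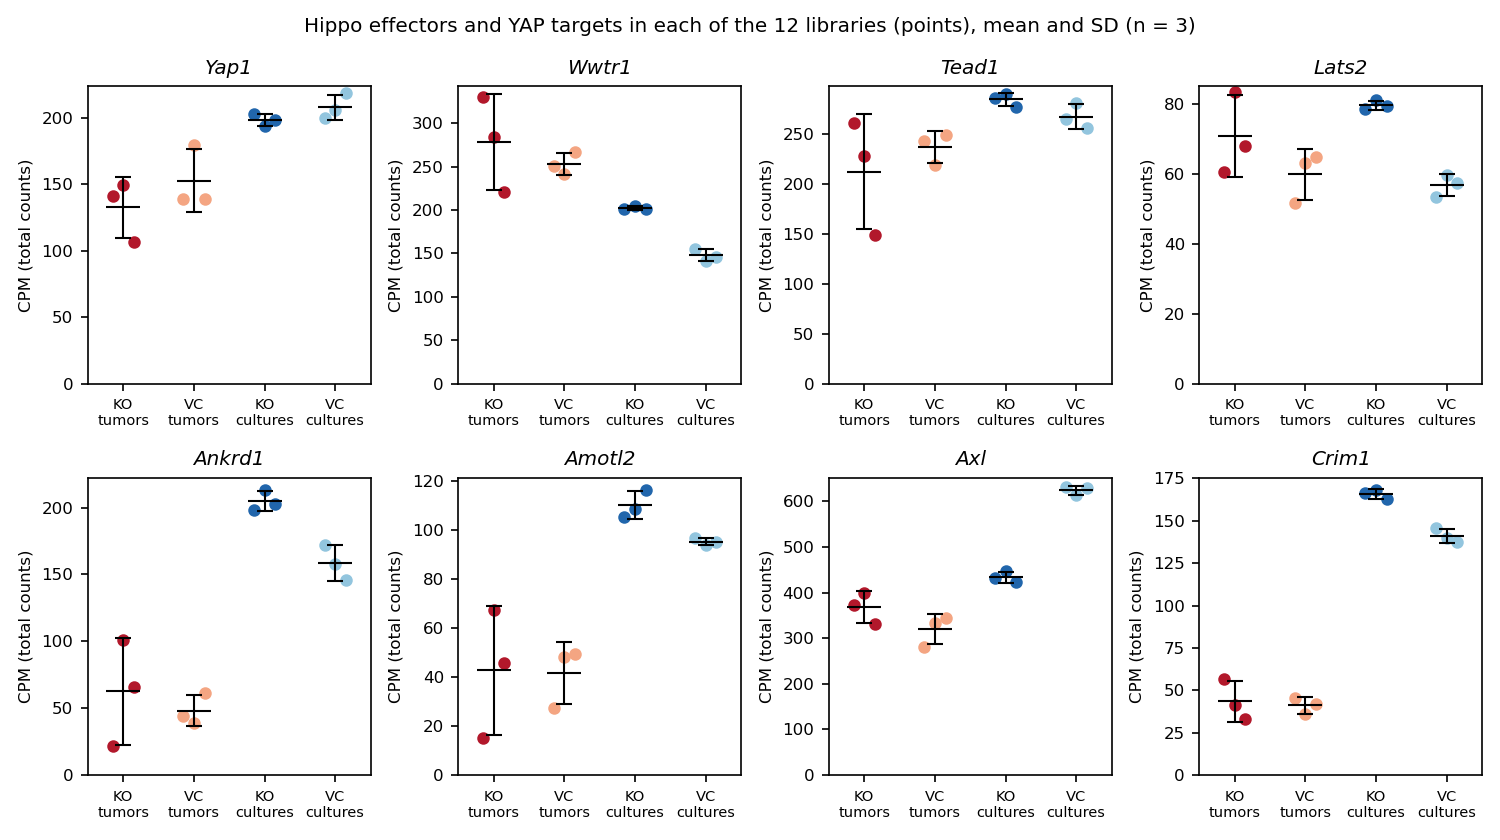
Level of each of the 8 genes in the 12 libraries, in CPM by the library total on the vertical axis, for KO-labelled tumors, VC tumors, KO-labelled cultures and VC cultures from left to right. Points are libraries, and bars show the mean and SD of 3. The cultures of a group lie close together, while KO-labelled tumors spread from 21.4 to 101 CPM in Ankrd1.

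In tumors, 0 of the 8 genes were called, and KO-labelled and VC tumors overlapped in all 8. By the same rule edgeR called 0 of 17153 genes, a background of 0%, with 0 of the 8 at an unadjusted p under 0.05. DESeq2 called 68 genes and the fit over all 12 libraries 64, none of them among the 8. The groups did not overlap for 10.4% of all genes tested, 4.96% higher and 5.43% lower in KO-labelled tumors. The median change of the 8 was 0.12, beside 0.02 over all genes tested.

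Yap1 had 141, 150 and 107 CPM in KO-labelled tumors POGZ_KO_8454, POGZ_KO_8455 and POGZ_KO_8459 and 139, 180 and 139 CPM in VC tumors POGZ_VC_8447, POGZ_VC_8448 and POGZ_VC_8451 (-0.20 ± 0.18, edgeR adjusted p = 0.911). Wwtr1 had 331, 284 and 221 CPM in KO-labelled tumors and 250, 242 and 267 CPM in VC tumors (0.14 ± 0.18, edgeR adjusted p = 0.931). Tead1 had 260, 228 and 148 CPM in KO-labelled tumors and 243, 219 and 249 CPM in VC tumors (-0.16 ± 0.21, edgeR adjusted p = 0.933). In all 3 effector genes tumor POGZ_KO_8459 was the lowest KO-labelled tumor. It lay below every VC tumor as well, while the other KO-labelled tumors lay within or above the VC range.

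Lats2 had 60.6, 83.6 and 68.0 CPM in KO-labelled tumors and 51.6, 63.2 and 65.0 CPM in VC tumors, so 2 of 3 KO-labelled tumors were above every VC tumor (0.24 ± 0.17, edgeR adjusted p = 0.883). Axl had 373, 400 and 332 CPM in KO-labelled tumors and 282, 334 and 345 CPM in VC tumors, again with 2 of 3 above the VC range (0.20 ± 0.16, edgeR adjusted p = 0.890). Crim1 had 56.8, 41.1 and 33.0 CPM in KO-labelled tumors and 45.6, 35.9 and 41.7 CPM in VC tumors, with KO-labelled tumors on both sides of the VC range (0.09 ± 0.22, edgeR adjusted p = 0.955). None of these 3 genes was called, and the groups overlapped in each. Tumor POGZ_KO_8459 was the lowest KO-labelled tumor in 5 of the 8 genes and the highest in 0.

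Ankrd1 and Amotl2 varied more between KO-labelled tumors than most genes did. Ankrd1 had 21.4, 101 and 65.7 CPM in KO-labelled tumors POGZ_KO_8454, POGZ_KO_8455 and POGZ_KO_8459, against 44.1, 38.9 and 61.0 CPM in VC tumors (0.38 ± 0.48, edgeR adjusted p = 0.932). Amotl2 had 15.1, 67.5 and 45.9 CPM in KO-labelled tumors, against 27.2, 48.0 and 49.6 CPM in VC tumors (0.03 ± 0.49, edgeR adjusted p = 0.996). In both genes tumor POGZ_KO_8454 was lower and tumor POGZ_KO_8455 higher than every VC tumor. The highest KO-labelled tumor had 4.74 times the lowest in Ankrd1 and 4.47 times in Amotl2. Of 10958 genes with a mean of at least 10 CPM in KO-labelled tumors, 2.14% spread as widely as Ankrd1 and 2.31% as widely as Amotl2, and the median gene spread 1.36 times. In VC tumors the same ratios were 1.57 and 1.82. Without tumor POGZ_KO_8455 the change in Ankrd1 was -0.14 and in Amotl2 -0.45, and without tumor POGZ_KO_8454 these were 0.79 and 0.43, with no call in any of the 4 fits.

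Of the 17 other described YAP targets, 9 stood in the same order as Ankrd1 across these 3 tumors, while 4, which were Gadd45a, Asap1, Igfbp3 and Nuak2, were highest in POGZ_KO_8454. The order was looked at after the values had been seen, and the share of all genes in this order was not taken. The count of 9 therefore does not show that these targets differ from other genes in it. It includes Fjx1, which had 29 counts in all over these 3 tumors. Ccn1 had 38.3, 169 and 72.0 CPM and Ccn2 had 64.0, 191 and 150 CPM in KO-labelled tumors POGZ_KO_8454, POGZ_KO_8455 and POGZ_KO_8459. VC tumors had 66.4, 66.2 and 79.9 CPM of Ccn1. Several marker lists of host cells stood in the same order in these KO-labelled tumors. The 8 fibroblast markers summed to 3541, 6681 and 4766 CPM, the 6 pericyte and smooth muscle markers to 235, 342 and 300 CPM and the 8 skeletal muscle markers to 14.2, 120 and 64.2 CPM in these 3 tumors. In VC tumors POGZ_VC_8447, POGZ_VC_8448 and POGZ_VC_8451 these 3 lists summed to 3851, 2388 and 3048, to 238, 203 and 225 and to 19.7, 41.4 and 29.1 CPM. Neither Ankrd1 nor Amotl2 stood in the order of any of these 3 lists in VC tumors. Amotl2 was lowest in POGZ_VC_8447, where the fibroblast and pericyte lists were highest and the skeletal muscle list was lowest. Ankrd1 was lowest in POGZ_VC_8448, where the fibroblast and pericyte lists were lowest and the skeletal muscle list was highest. The 8 macrophage markers stood in another order in KO-labelled tumors, at 842, 754 and 1774 CPM, and ran from 619 to 1060 CPM in VC tumors. So did the 6 T and NK cell markers in KO-labelled tumors, at 28, 19.5 and 62.3 CPM. The endothelial, neutrophil and adipocyte lists stood in the order of Ankrd1 there. No marker of any of these lists was at 0 in all KO-labelled tumors. The part of these cells in the values of Ankrd1 and Amotl2 was not tested.

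**Figure D3:**
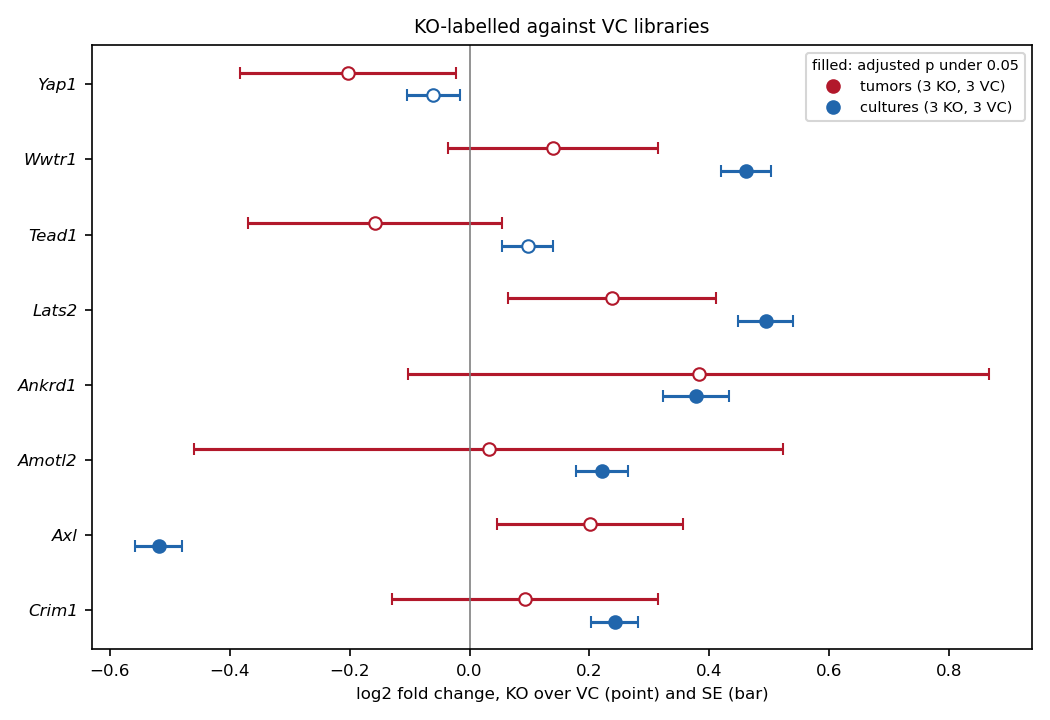
Change of each of the 8 genes in KO-labelled against VC libraries, in tumors (upper point of each pair) and in cultures (lower point), with the log2 fold change on the horizontal axis and bars of 1 SE. Filled points passed an adjusted p under 0.05. The 6 filled points are all of cultures, and Axl is the one gene among them on the negative side.

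The difference between both effects, tumors minus cultures, was tested in 1 fit over all 12 libraries, in which 2.05% of 18419 genes were called, 1.13% with a positive and 0.912% with a negative difference. Among the 8 genes Axl was called. Its change was 0.72 ± 0.14 higher in tumors than in cultures on the log2 scale (edgeR adjusted p = 0.0234), where Axl was higher in 2 of 3 KO-labelled tumors than in any VC tumor and lower in 3 of 3 KO-labelled cultures than in any VC culture. The call was lost without any 1 of the 6 culture libraries. The difference was then 0.71 to 0.75, with an edgeR adjusted p of 0.063 to 0.0855. Tumor libraries hold host cells too, and the part of the cell mixture in this difference was not tested. Of the other 7 genes none was called, with differences from -0.32 ± 0.18 in Wwtr1 to 0.00 ± 0.53 in Ankrd1. The error was as wide in Amotl2 (-0.19 ± 0.54). For these 7 genes the test shows neither a difference nor that the changes were alike.

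Between tumors and cultures the genes did not move as one. Wwtr1 was higher in tumors, and Yap1, Ankrd1, Amotl2 and Crim1 were lower, under both labels. In these contrasts 64.1% of all genes were called for KO-labelled samples (37.7% higher and 26.4% lower in tumors) and 64.9% for VC samples (37.9% higher and 27% lower), and 6 of the 8 genes were called under each label, 1 higher and 5 lower. The median change of the 8 was -0.47 for KO-labelled and -0.67 for VC samples, beside 0.16 and 0.17 over all genes. Both contrasts share 1 fit and its estimate of spread.

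Crim1 and Ankrd1 showed the largest differences. Crim1 averaged 43.6 ± 12.1 CPM in KO-labelled tumors and 166 ± 2.79 CPM in KO-labelled cultures (SD, n = 3 each; -1.90 ± 0.17, edgeR adjusted p = 2.12e-06), and 41.1 ± 4.92 CPM in VC tumors and 141 ± 4.22 CPM in VC cultures (-1.75 ± 0.17, edgeR adjusted p = 4.22e-06). Ankrd1 averaged 62.8 ± 40.0 CPM in KO-labelled tumors and 205 ± 7.47 CPM in KO-labelled cultures (-1.69 ± 0.39, edgeR adjusted p = 0.00238), and 48.0 ± 11.6 CPM in VC tumors and 159 ± 13.3 CPM in VC cultures (-1.69 ± 0.39, edgeR adjusted p = 0.00258). In both genes every tumor was below every culture.

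Amotl2 averaged 42.8 ± 26.3 CPM in KO-labelled tumors and 110 ± 5.63 CPM in KO-labelled cultures (-1.34 ± 0.38, edgeR adjusted p = 0.00883). It averaged 41.6 ± 12.5 CPM in VC tumors and 95.1 ± 1.44 CPM in VC cultures (-1.15 ± 0.39, edgeR adjusted p = 0.0204), a call lost without VC tumor POGZ_VC_8447 (edgeR adjusted p = 0.0749). Yap1 was lower in tumors by less, at -0.55 ± 0.13 for KO-labelled and -0.42 ± 0.13 for VC samples (edgeR adjusted p = 0.00279 and 0.0143). Carcinoma markers were lower in tumors too, with 6 of 8 lower and 2 higher for KO-labelled and 4 lower and 1 higher for VC samples, at a median of -0.99 and -0.46. All 8 fibroblast markers were higher in tumors under both labels, and the part of the cell mixture in these changes was not tested.

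Wwtr1 averaged 279 ± 55.1 CPM in KO-labelled tumors and 202 ± 2.05 CPM in KO-labelled cultures (0.49 ± 0.13, edgeR adjusted p = 0.00514), and 253 ± 13.0 CPM in VC tumors and 148 ± 6.79 CPM in VC cultures (0.81 ± 0.13, edgeR adjusted p = 0.000181). Every tumor was above every culture of either label. With no filter on low counts, the scaling lowered all 8 changes by 0.19, and the rise in KO-labelled samples was then 0.30 ± 0.13 (edgeR adjusted p = 0.0793). Axl averaged 368 ± 34.4 CPM in KO-labelled tumors and 434 ± 11.9 CPM in KO-labelled cultures (-0.21 ± 0.10, edgeR adjusted p = 0.0868), and 320 ± 33.9 CPM in VC tumors and 625 ± 10.1 CPM in VC cultures (-0.93 ± 0.10, edgeR adjusted p = 9.96e-06). Axl was thus lower in VC tumors than in VC cultures, and for KO-labelled samples the call turned on the method, since DESeq2 (-0.24 ± 0.09, adjusted p = 0.0263) and edgeR with no filter (-0.40 ± 0.11, adjusted p = 0.00799) passed.

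Tead1 and Lats2 had the smallest differences of the 8 genes for VC samples. Tead1 stood at -0.39 ± 0.16 for KO-labelled samples (edgeR adjusted p = 0.049), a call lost in 10 of 12 fits that left out 1 library, and at -0.14 ± 0.16 for VC samples (edgeR adjusted p = 0.449). Lats2 stood at -0.14 ± 0.12 for KO-labelled samples (edgeR adjusted p = 0.314) and at 0.11 ± 0.12 for VC samples (edgeR adjusted p = 0.444). The sign of Lats2 for VC samples turned with no filter on low counts, to -0.08 ± 0.13. By that setting Lats2 was called lower in tumors for KO-labelled samples (-0.33 ± 0.13, edgeR adjusted p = 0.0431).

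**Figure D4:**
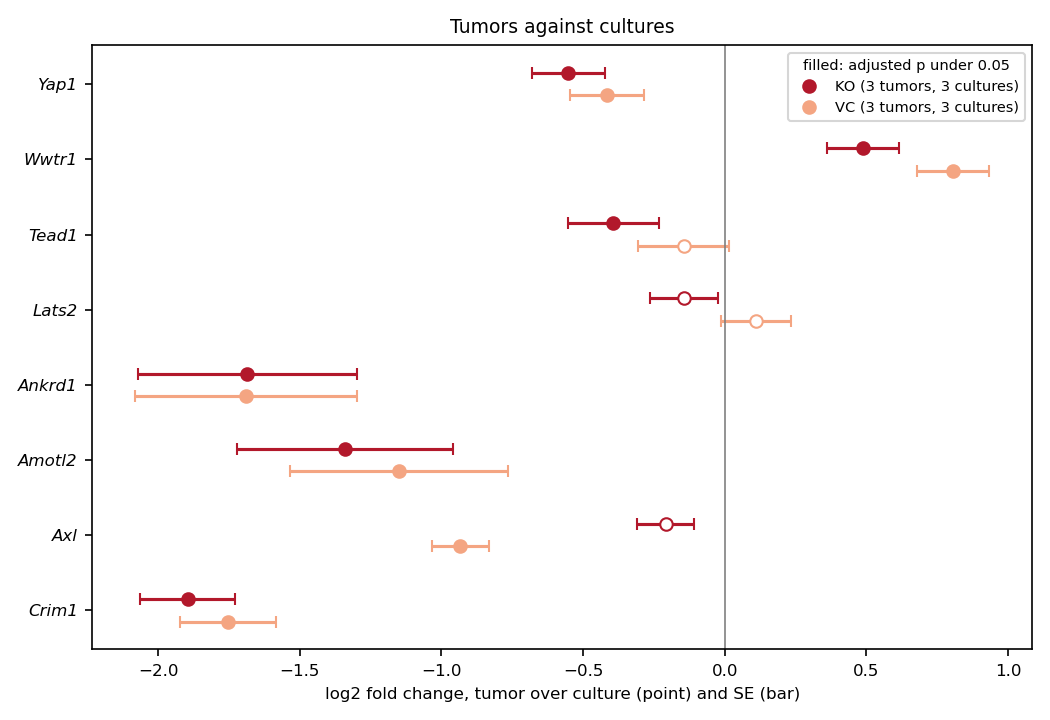
Change of each of the 8 genes in tumors against cultures, for KO-labelled (upper point) and VC samples (lower point), with the log2 fold change on the horizontal axis and bars of 1 SE. Filled points passed an adjusted p under 0.05. Wwtr1 lies right of 0 under both labels, and Crim1 and Ankrd1 lie farthest to the left, from -1.90 to -1.69.

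Levels can be set between genes only per length, as RPKM, which divides CPM by exon length. In KO-labelled tumors the order was Axl with 73.1 ± 6.84 RPKM, Wwtr1 with 58.3 ± 11.5, Ankrd1 with 21.7 ± 13.9, Tead1 with 15.6 ± 4.25, Yap1 with 14.3 ± 2.47, Lats2 with 10.1 ± 1.68, Crim1 with 7.28 ± 2.02 and Amotl2 with 6.81 ± 4.19 RPKM (SD, n = 3). The 3 libraries of Wwtr1 all lay above those of Ankrd1, and the other neighbours overlapped. In VC cultures the order was Axl with 124 ± 2.01 RPKM, Ankrd1 with 54.9 ± 4.60, Wwtr1 with 30.9 ± 1.42, Crim1 with 23.5 ± 0.704, Yap1 with 22.5 ± 1.04, Tead1 with 19.7 ± 0.949, Amotl2 with 15.1 ± 0.229 and Lats2 with 8.15 ± 0.441 RPKM. There Crim1 and Yap1 overlapped in their libraries, and the other neighbours did not. Axl led and Lats2 was last in KO-labelled cultures too, with 86.2 ± 2.36 and 11.4 ± 0.183 RPKM. In VC tumors, as in KO-labelled ones, Wwtr1 with 53.0 ± 2.71 RPKM followed Axl with 63.6 ± 6.73 RPKM, and Amotl2 was last with 6.61 ± 1.99 RPKM.

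The RNA ratio of both coactivator genes was also taken in each library. Yap1 RPKM over Wwtr1 RPKM was 0.221, 0.272 and 0.249 in KO-labelled tumors and 0.287, 0.384 and 0.268 in VC tumors. It was 0.520, 0.489 and 0.507 in KO-labelled cultures and 0.663, 0.748 and 0.769 in VC cultures. Every tumor was below every culture, and every KO-labelled culture below every VC culture, while KO-labelled and VC tumors overlapped. Tumor libraries also hold host cells, and their part in the ratio was not tested. Wwtr1 lies on chromosome 3, whose genes had a median change of 0.33 in cultures. With chromosome medians taken out, Wwtr1 changed by 0.13 and Yap1 by -0.09 in KO-labelled cultures, beside 0.46 and -0.06 before. The ratio itself was not adjusted for this. By a two-sided exact permutation test the p was 0.1 for KO-labelled against VC cultures, for KO-labelled tumors against cultures and for VC tumors against cultures, which is the smallest that 3 against 3 allows, and 0.2 for KO-labelled against VC tumors (n = 3 per group, adjusted over these 4 comparisons to 0.133 and 0.2). The ratio was chosen after the values of both genes had been seen, and gene-specific biases of counting cancel only between groups, not between genes.

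The other genes of the pathway went both ways in cultures. Of 21 kinases, scaffolds and regulators, 18 passed the filter on low counts in cultures and were tested. Of these 18, 8 rose and 2 fell in KO-labelled cultures, beside 47.9% of all genes called, 23% higher and 24.9% lower. The median change was 0.06, beside -0.01 over all genes, and the median absolute change 0.13, beside 0.22 over all genes. Stk4, the MST1 kinase gene, rose by 0.60 ± 0.04, with 143 ± 0.930 CPM in KO-labelled cultures and 94.6 ± 4.97 CPM in VC cultures (SD, n = 3 each). Lats1, the sister kinase of Lats2, rose by 0.40 ± 0.04, Wwc2, a KIBRA family scaffold that activates LATS, by 0.46 ± 0.04, and Ajuba, a LIM protein that restrains LATS, by 0.39 ± 0.04. Mob1a, a LATS cofactor, stood at -0.45 ± 0.04 and Map4k4, a kinase that acts on LATS beside MST, at -0.20 ± 0.04. Chromosome 6, which holds Mob1a, had a median of -0.45 with 7.33% of 491 genes higher, and with the chromosome medians taken out Mob1a stood at 0.00 ± 0.04 (edgeR adjusted p = 0.945) and Map4k4, on chromosome 1, at -0.08 ± 0.04 (edgeR adjusted p = 0.134). By the same step Stk4 stood at 0.36 ± 0.04 and Lats1 at 0.26 ± 0.04, both still called. In the fit over all 12 libraries Stk4, Wwc2, Ajuba and Map4k4 were not called, with edgeR adjusted p from 0.0629 to 0.341.

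None of the other TEAD genes and none of the VGLL genes was called higher in KO-labelled cultures. Of 7 TEAD and VGLL genes, 5 passed the filter on low counts in cultures and were tested. Of these 5, 0 rose and 3 fell in KO-labelled cultures, beside 23% of all genes higher and 24.9% lower. Tead4 had 25.7 ± 0.962 CPM in KO-labelled cultures and 45.9 ± 1.03 CPM in VC cultures (-0.83 ± 0.05, edgeR adjusted p = 1.2e-07), and it was called under each alternative tried, its smallest change being -0.38 with the median of chromosome 6 taken out. Vgll4, which competes with YAP for TEAD, stood at -0.37 ± 0.07 (edgeR adjusted p = 0.001), but at 0.08 ± 0.07 with that median taken out. Tead3 stood at -0.23 ± 0.07 (edgeR adjusted p = 0.0214), a call lost under DESeq2 (adjusted p = 0.11), with chromosome medians taken out (edgeR adjusted p = 0.107) and in 3 of 6 fits that left out 1 library. In the fit over all 12 libraries neither Vgll4 nor Tead3 was called (edgeR adjusted p = 0.106 and 0.543). Vgll2 had no count in any library.

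Of 17 other described YAP targets, 14 passed the filter on low counts in cultures and were tested. Of these 14, 8 rose and 1 fell in KO-labelled cultures, beside 23% of all genes higher and 24.9% lower. Their median was 0.26, beside -0.01 over all genes. Ccn2 rose most among the well-expressed ones, with 421, 447 and 436 CPM in KO-labelled cultures 1, 2 and 3 and 118, 103 and 110 CPM in VC cultures (1.99 ± 0.05, 3.96-fold, edgeR adjusted p = 6.28e-11). Ccn1 rose by 0.76 ± 0.04, F3, the tissue factor gene, by 0.80 ± 0.06, Gadd45a, a stress gene, by 0.57 ± 0.05, and Nt5e, the CD73 ectonucleotidase gene, by 0.46 ± 0.04. Ccdc80 was also called (2.12 ± 0.38), from 56 counts over all 3 KO-labelled and 13 over all 3 VC cultures. With chromosome medians taken out, Ccn1 stood at 0.43 ± 0.04 and F3 at 0.47 ± 0.06, both on chromosome 3, and Gadd45a, on chromosome 6, at 1.02 ± 0.05, all 3 still called. Ccn2 is also known as a target of TGF-beta signaling. In the fit over all 12 libraries Ccn2 was called (edgeR adjusted p = 0.00606) and Ccdc80, Ccn1, F3, Nt5e and Gadd45a were not, with edgeR adjusted p from 0.0708 to 0.382. Among the 8 genes first described the largest rise was 0.49, in Lats2.

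In tumors 0 of 21, 0 of 5 and 0 of 15 tested genes of these 3 lists were called. Among their most abundant genes, Amotl1, another angiomotin, stood at -0.30 ± 0.31, Tead2 at -0.08 ± 0.34, Myof, a membrane repair gene, at 0.26 ± 0.22 and Nt5e at 0.34 ± 0.32 in KO-labelled against VC tumors. Single tumors moved these values. Without POGZ_KO_8454 Amotl1 stood at -0.79, Tead2 at -0.62 and Nt5e at 0.63, without POGZ_KO_8459 Amotl1 stood at -0.09, Tead2 at 0.19 and Nt5e at 0.15, and Myof stood at 0.04 without POGZ_KO_8455, with no call in any of these fits. Ccn2 had 64.0, 191 and 150 CPM in KO-labelled tumors and 83.2, 164 and 188 CPM in VC tumors, with overlapping ranges. The difference between its changes, tumors minus cultures, was -2.10 ± 0.48 on the log2 scale (edgeR adjusted p = 0.0494), a call lost with RLE scaling (edgeR adjusted p = 0.0675) and in 9 of 12 fits that left out 1 library. Between tumors and cultures, Wwc1, the KIBRA gene, had 51.2 ± 8.17 CPM in KO-labelled tumors and 236 ± 1.80 CPM in KO-labelled cultures (-2.18 ± 0.12, edgeR adjusted p = 6.28e-08). Amot, the founding angiomotin, stood at -1.30 ± 0.12 and Wwc2 at -1.19 ± 0.13 in KO-labelled tumors against cultures, each called lower under both labels. Nt5e had 436 ± 170 CPM in KO-labelled tumors and 88.3 ± 1.06 CPM in KO-labelled cultures (2.33 ± 0.26, edgeR adjusted p = 1.1e-05). Dchs1 and Fat4, relatives of the Drosophila ligand and receptor pair Dachsous and Fat, were close to absent in cultures. Dchs1 had 10.0 to 17.5 CPM in KO-labelled tumors and 8.27 to 14.4 CPM in VC tumors, against at most 0.0679 CPM in any culture. Fat4 had 15.8 to 21.4 CPM in KO-labelled tumors and 8.50 to 15.7 CPM in VC tumors, against at most 0.054 CPM in any culture.

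**Figure D5:**
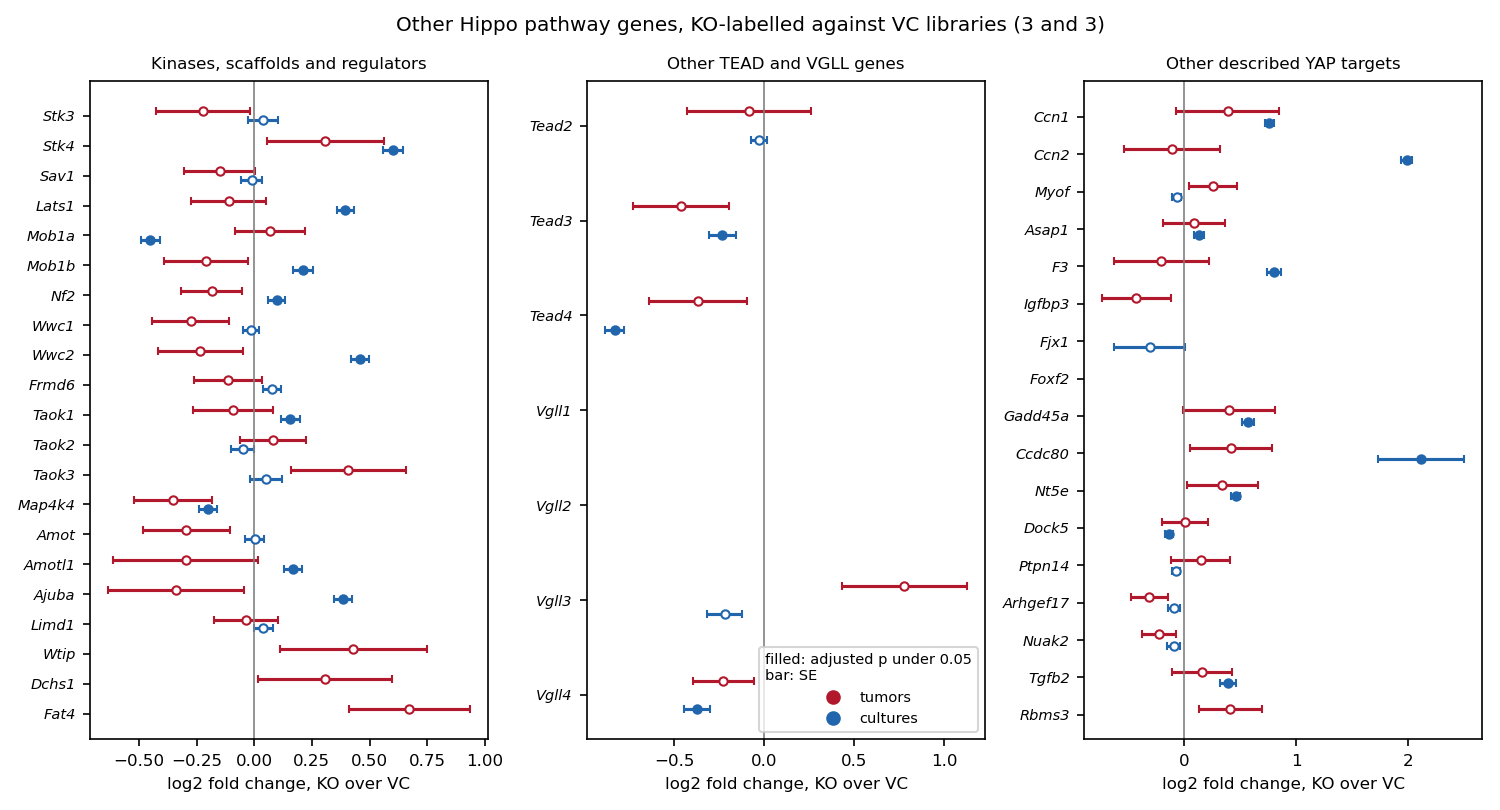
Change of the other Hippo genes in KO-labelled against VC libraries, in tumors (upper point) and cultures (lower point), with the log2 fold change on the horizontal axis, bars of 1 SE and filled points past an adjusted p under 0.05. A gene with no point did not pass the filter on low counts in that system. Ccn2 and Ccdc80 stand out in cultures at 1.99 and 2.12, and no point of the tumors is filled.

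Genes with the most similar pattern were sought over all 12 libraries among 9512 genes, as a description in which the gap between tumors and cultures weighs heavily. For Wwtr1 these were Rprd2, Sowahc and Pogz itself, with Pearson r of 0.98 each, and Rprd2 and Pogz lie on chromosome 3 with Wwtr1. Lats2 was closest to Schip1, Hspa4l and Fxr1 (r of 0.93, 0.93 and 0.92), all on chromosome 3, while Lats2 lies on chromosome 14. Ankrd1 was closest to Mvd, Nucb2 and Cdr2l (0.99, 0.99 and 0.98) and Crim1 to Nmt2, Scd2 and Tomm70a (0.99 each). Axl was closest to Cyb5r1, Cdc16 and Impa2 (0.97, 0.96 and 0.96) and Tead1 to Ttc8, Ston1 and Tjp1 (0.94, 0.93 and 0.92). Among the 8 genes themselves, Ankrd1 and Amotl2 were the most alike over all 12 libraries, with r of 0.96. Within a system they were not, with r of 0.888 over the 6 tumors and 0.87 over the 6 cultures. Wwtr1 and Crim1 had 0.894 over the tumors and 0.99 over the cultures.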

How the data were processed

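Cultures and tumors came in separate tables of unnormalized counts, deposited by the authors, with 39017 Ensembl genes each. The submitters' processing notes name the mm10 build, featureCounts 1.4.4, STAR 2.3.0e and Trimmomatic 0.32. Their settings, the annotation release and strand use are not given in the sources used here. Per the labels' protocols, RNA was depleted of ribosomal RNA before library preparation.

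Counts were fitted in R 4.3.3 with edgeR 4.0.16 (TMM scaling, filterByExpr, quasi-likelihood test, Benjamini-Hochberg adjustment over all genes tested). A gene was called where the adjusted p was under 0.05. Each system had its own fit for KO-labelled against VC libraries. The difference between both effects, and tumors against cultures, were taken from 1 fit over all 12 libraries, with 3 libraries in each of 4 groups. Fold changes are log2 with their standard error, the absolute change divided by the square root of F. CPM is the count scaled by the library total, and RPKM divides it by exon length from GENCODE M21, which held 37607 of the IDs. Positions are on GRCm38, the assembly of mm10. Total counts ran from 4712001 to 21863223, and deeper libraries give smaller counting error.

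Every one of the 8 genes was named in every comparison but the difference test, with Pogz as the check. In the difference test Axl, Wwtr1, Ankrd1 and Amotl2 were named. Of each further list, names were taken from up to 6 called genes with the smallest p. Where none was called, they came from up to 2 of the highest mean. For tumors against cultures only some of these were named. Left out there were, among others, Rbms3, Igfbp3, Ccdc80 and Vgll4, called higher in tumors under both labels, and Tead4, called lower under both. For likeness the 3 genes with the highest Pearson r of log2 CPM (prior count 2) were named, among genes whose mean log2 CPM reached 3; for Yap1 and Amotl2 this result is not reported here. The 8 genes, the lists and the tests were chosen with earlier results of these data known. Ccn1 and Ccn2 in tumors, and Dchs1 and Fat4 in levels only, were set beside them after their values were seen.

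The fits were tested on simulated counts. Replicates of each group differed by more than sampling noise, and each was counted as its own sample. That spread does not tell separate cultures from separate libraries of the same culture. Culture numbers did not pair the samples, as the deviations of same-numbered cultures correlated at -0.16, 0.03 and 0.07. Alternatives were RLE scaling, no filter, DESeq2 1.42.0, all 12 libraries in 1 fit, a replicate block, chromosome medians taken out and leaving out each library. The promoter windows came from RefSeq, and motifs were searched on both strands. Python 3.11.15 drew the figures.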

Additional observations from a re-analysis of the deposited data

Results flagged for a closer look

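The difference of the label effect between tumors and cultures was past the threshold for Axl and for Ccn2, and both are listed because the effect itself was tested for a difference between the systems. For Axl it was 0.72 ± 0.14 on the log2 scale (edgeR adjusted p = 0.0234), a call lost without any 1 of the 6 culture libraries (0.063 to 0.0855). Axl was higher in 2 of 3 KO-labelled tumors than in any VC tumor and lower in 3 of 3 KO-labelled cultures than in any VC culture. For Ccn2 it was -2.10 ± 0.48 (edgeR adjusted p = 0.0494), with 3 of 3 KO-labelled cultures above every VC culture and overlapping tumors. That call was lost with RLE scaling (edgeR adjusted p = 0.0675) and in 9 of 12 fits that left out 1 library. In the same test 2.05% of all genes were called. The part of the cell mixture of tumors in either difference was not tested.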

How the results depend on the processing

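In KO-labelled against VC cultures, RLE scaling, DESeq2, no filter, the replicate block and the fits without 1 library kept all 6 calls of the 8 genes. Fits without 1 culture called 6 to 7 of the 8 and 6551 to 7407 genes. All 12 libraries in 1 fit called 2 of the 8 and 1501 genes (663 higher, 838 lower). With the culture number as a replicate block, which is no pairing here, 7237 genes and 6 of the 8 were called, and no call of the 8 changed. With chromosome medians taken out, Mob1a turned to 0.0043 and Vgll4 to 0.082. In tumors DESeq2 called 68 genes and all 12 libraries in 1 fit 64, against 0, with 0 of the 8 in each. For the difference between both effects DESeq2 called 940 genes, against 377, and fits without 1 library 147 to 1588 genes and 0 to 1 of the 8. Ankrd1 turned to -0.00074 in that test with no filter, and Lats2 to -0.076 in VC tumors against cultures. With no filter Lats2 was also called lower in KO-labelled tumors against cultures (-0.33, edgeR adjusted p = 0.0431). Without 1 library at a time, these changes of sign were seen in the difference test: Ankrd1 ran from -0.50 to 0.41, Amotl2 from -0.66 to 0.20, Crim1 from -0.39 to 0.019, Tead2 from -0.59 to 0.23 and Vgll4 from -0.018 to 0.24. In tumors Wwtr1 ran from -0.010 to 0.27, Tead1 from -0.34 to 0.035, Ankrd1 from -0.14 to 0.79, Amotl2 from -0.45 to 0.43, Crim1 from -0.15 to 0.25, Taok1 from -0.21 to 0.053 and Tead2 from -0.62 to 0.19. Where 1 library of a group was left out, 2 remained. The cause of these differences was not tested, beyond the wider spread that a joint fit gives to cultures. VC tumors held as few as 128 counts of Amotl2 in 1 library, and the part of depth in the errors was not tested.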
